A study of Caenorhabditis elegans with 4 samples.

Results

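The major sperm protein genes (msp) and the ssp and msd genes, which encode relatives built around the same MSP domain, were followed in ribosome-protected fragments from whole young adult Caenorhabditis elegans. Members were all genes of the count table whose symbol was msp-, ssp- or msd- followed by a number, which gave 46 of 20179 genes: 30 msp, 12 ssp and 4 msd genes. The study compared the double mutant cey-1(rrr12) cey-4(ok858), with 2 libraries, and the wild-type strain N2, also with 2 libraries, all from whole young adult worms. The cey genes encode Y-box proteins, a class of RNA-binding proteins that the series title connects with polysomes. The sources used here do not describe what either allele removes or how many strains or cultures were sampled, so p-values measure the spread between these libraries, which may be technical. Footprints of 28 to 30 nucleotides were cut from a gel, and the footprint count of a gene reflects both how much message was present and how densely ribosomes covered it. RNA-seq was not analysed here, and levels are not corrected for gene length.

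Major sperm protein is the main cytoskeletal protein of nematode sperm. It polymerises into the filaments that drive the crawling of these actin-poor cells, and during sperm formation it is stored in fibrous bodies attached to membranous organelles. Sperm also release it as a signal that starts oocyte maturation and contraction of the gonadal sheath. The msp genes are transcribed in cells that are becoming sperm, which hermaphrodites make before they switch to oocytes, and many are near-identical copies that lie in clusters. In the RefSeq annotation of assembly WBcel235, 23 of the 44 member symbols placed there had another member as the next protein-coding gene or the next but one.

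The 2 mutated genes were low in the libraries labelled mutant. cey-4 had 1.87 and 1.53 CPM (counts scaled to library size, normalised for composition) in the mutant libraries against 263 and 267 CPM in the N2 libraries, and cey-1 had 3.85 and 4.14 CPM against 69.8 and 73.6 CPM in N2. The smallest library held 22334239 counts and the largest 32960588. A count of 0 allows up to 3 counts, which came to between 0.0911 and 0.1345 CPM before composition scaling and covers counting error only. Markers of sperm other than the members were present, with no gene of the list at 0 in all libraries, and so were markers of the other tissues of a whole worm.

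Footprints on the major sperm protein genes took a larger share of the mutant libraries than of the N2 libraries. The msp genes together held 0.142% and 0.148% of all gene counts in the mutant libraries, against 0.107% and 0.113% in the N2 libraries. The lower mutant library lay above the higher N2 library. The mean share was 0.145% ± 0.0041 in the mutant and 0.11% ± 0.00454 in N2 (SD, n = 2 each), a ratio of 1.32. The ssp genes held 0.0237% and 0.0238% in the mutant against 0.0183% and 0.0187% in N2, a ratio of 1.28, and the msd genes 0.0211% and 0.0221% against 0.0174% and 0.0183%, a ratio of 1.21. In whole worms, fewer cells of a type and less RNA per cell cannot be told apart.

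Markers of the sperm and of the oocyte moved in opposite directions beside the members. Of the 21 sperm markers listed, 20 were in the table and 18 had enough counts to test, of which 14 rose, none fell and 4 did not pass. Their summed level was 1545 and 1638 CPM in the mutant libraries against 1125 and 1182 CPM in N2, a ratio of 1.38. Of 12 oocyte markers, 11 fell and 1 did not pass, and their summed level was 3953 and 3906 CPM in the mutant against 6497 and 6741 CPM in N2. No oocyte marker was at 0. The msp genes had 0.358 and 0.38 counts per count of the oocyte markers in the mutant libraries, against 0.164 and 0.168 in N2. Of 9 body-wall muscle markers, 8 rose and 1 did not pass, with sums of 26839 and 27016 CPM in the mutant and 15215 and 16185 CPM in N2. For all genes tested, the shares were 17.4% rising and 16.6% falling. Of 9 intestine markers 5 rose and 2 fell, of 7 hypodermis markers 2 rose and none fell, and of 10 neuron markers none rose and 3 fell. The part of these cell-type differences in the changes of the members was not tested.

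**Figure D1:**
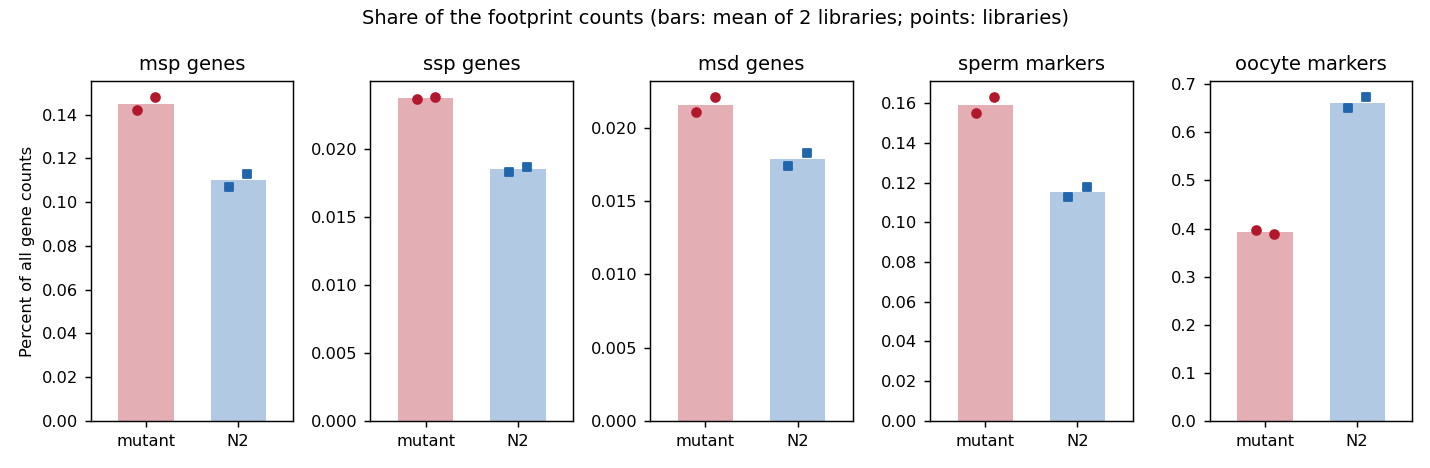
Percent of all gene counts (vertical axis, each panel from 0 on its own scale) on the msp, ssp and msd genes, on sperm markers that are not members and on oocyte markers, in the cey-1(rrr12) cey-4(ok858) mutant (left) and N2 (right). Bars are means of 2 libraries and points are libraries: the msp share was 0.142% and 0.148% in the mutant against 0.107% and 0.113% in N2, while the oocyte marker share was lower in the mutant.

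Counts were spread very unevenly over the near-identical msp copies. The members msp-51, msp-79 and msp-113 had 0 counts in each of the 4 libraries, msp-10 had 1 count in N2 replicate 2 and none elsewhere, and msp-32 had 7 and 1 counts in the mutant against 10 and 6 in N2. Yet the 4 msp genes with the most counts, msp-50, msp-64, msp-76 and msp-31, held 36.6% of all msp counts on average over the libraries, and the top 10 held 70.8%. Some genes near 0 lay beside genes with counts. In RefSeq the next gene to msp-10 is msp-81, which had 19.5 and 20 CPM in the mutant and 16.3 and 15.5 CPM in N2. The nearest member to msp-51, in contrast, is msp-113, and both had 0 counts. How the authors assigned a footprint that matches several copies is not given in the sources used here. A 0 therefore means that no footprint was assigned to that copy, and the values of single copies below are uncertain in the same way. Protein and genome sequences were not used here, so how alike any particular copies are was not measured.

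Taken as 1 row, the msp family rose in the mutant by the scaling to library composition, though not relative to other sperm genes (log2 fold change -0.05). It had 1414 and 1483 CPM in the mutant libraries against 1067 and 1133 CPM in the N2 libraries, and the groups did not overlap. The log2 fold change was 0.40 (SE 0.055, 1.32-fold, adjusted p = 1.00e-08 by the quasi-likelihood test of edgeR, Benjamini-Hochberg over 13061 rows). With the msp genes as 1 row and the 2 identifiers that share the symbol ssp-9, and the 2 that share msd-1, also joined, the members made 15 rows. Of these, 10 rose, 1 fell, 3 did not pass and the joined msd-1 row had no counts. Across all rows of that table, 17.4% rose.

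Gene by gene, 39 of the 46 members had enough counts to test, and 29 of them rose in the mutant by the composition scaling (2 when centred on other sperm genes), 1 fell and 9 did not pass (threshold 0.05 on the adjusted p of edgeR). Across all 13086 genes tested, 17.4% rose and 16.6% fell, with a median log2 fold change of 0.01, against a median of 0.38 over the 39 tested members. For 34 of the 39, both mutant libraries lay on one side of both N2 libraries, 33 of them above. This was so for 64.8% of all genes tested. The 5 msp genes named above and both msd-1 identifiers, which had 0 counts in all libraries, fell below the count minimum.

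Of the 25 msp genes tested, 19 rose, none fell and 6 did not pass, with log2 fold changes of 0.12 to 1.00 and a median of 0.41 (-0.04 relative to other sperm genes). msp-50, which received the most counts of the msp rows, had 146 and 146 CPM in the mutant against 115 and 123 CPM in N2. Its log2 fold change was 0.30 (SE 0.041, edgeR adjusted p = 1.37e-08). msp-64 had 134 and 136 CPM in the mutant against 109 and 114 CPM in N2 (log2 fold change 0.28, SE 0.042, edgeR adjusted p = 8.70e-08). In both genes the mutant libraries stood close together above N2. msp-76 had 127 and 118 CPM in the mutant against 90.6 and 96.5 CPM in N2, and its log2 fold change was 0.40 (SE 0.044, edgeR adjusted p = 1.64e-11).

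The copies with the lowest p were msp-33, msp-31 and msp-40, followed by msp-76. msp-33 had 73.2 and 68 CPM in the mutant against 43.4 and 39.5 CPM in N2, and it rose 1.7-fold (log2 fold change 0.77, SE 0.053, edgeR adjusted p = 3.73e-20). msp-31 had 123 and 118 CPM in the mutant against 82.8 and 83.9 CPM in N2 (log2 fold change 0.53, SE 0.043, edgeR adjusted p = 1.81e-17). msp-40 had 55.5 and 58.3 CPM in the mutant against 37 and 41.1 CPM in N2 (log2 fold change 0.54, SE 0.055, edgeR adjusted p = 4.28e-13). In these 3 copies the gap between genotypes was several times the gap between libraries of a genotype. Among the remaining copies, named after their values were seen, msp-56 had the largest fold change of the tested msp genes, with 4.03 and 4.95 CPM in the mutant against 1.85 and 2.66 CPM in N2 (log2 fold change 1.00, SE 0.172, edgeR adjusted p = 2.88e-06). It rests on 110 and 110 counts in the mutant against 61 and 74 in N2. msp-3 had 34.7 and 40.4 CPM in the mutant against 23 and 26.4 CPM in N2, a log2 fold change of 0.60. The other 11 that rose, msp-38, msp-45, msp-49, msp-55, msp-59, msp-63, msp-77, msp-78, msp-81, msp-142 and msp-152, ranged from 0.22 to 0.52. Of these, msp-55 did not pass without N2 replicate 1 (log2 fold change 0.13, edgeR adjusted p = 0.195) or mutant replicate 1 (0.18, edgeR adjusted p = 0.0841), nor with DESeq2 (0.21, adjusted p = 0.132), which also lost msp-81 (0.30, adjusted p = 0.0636).

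**Figure D2:**
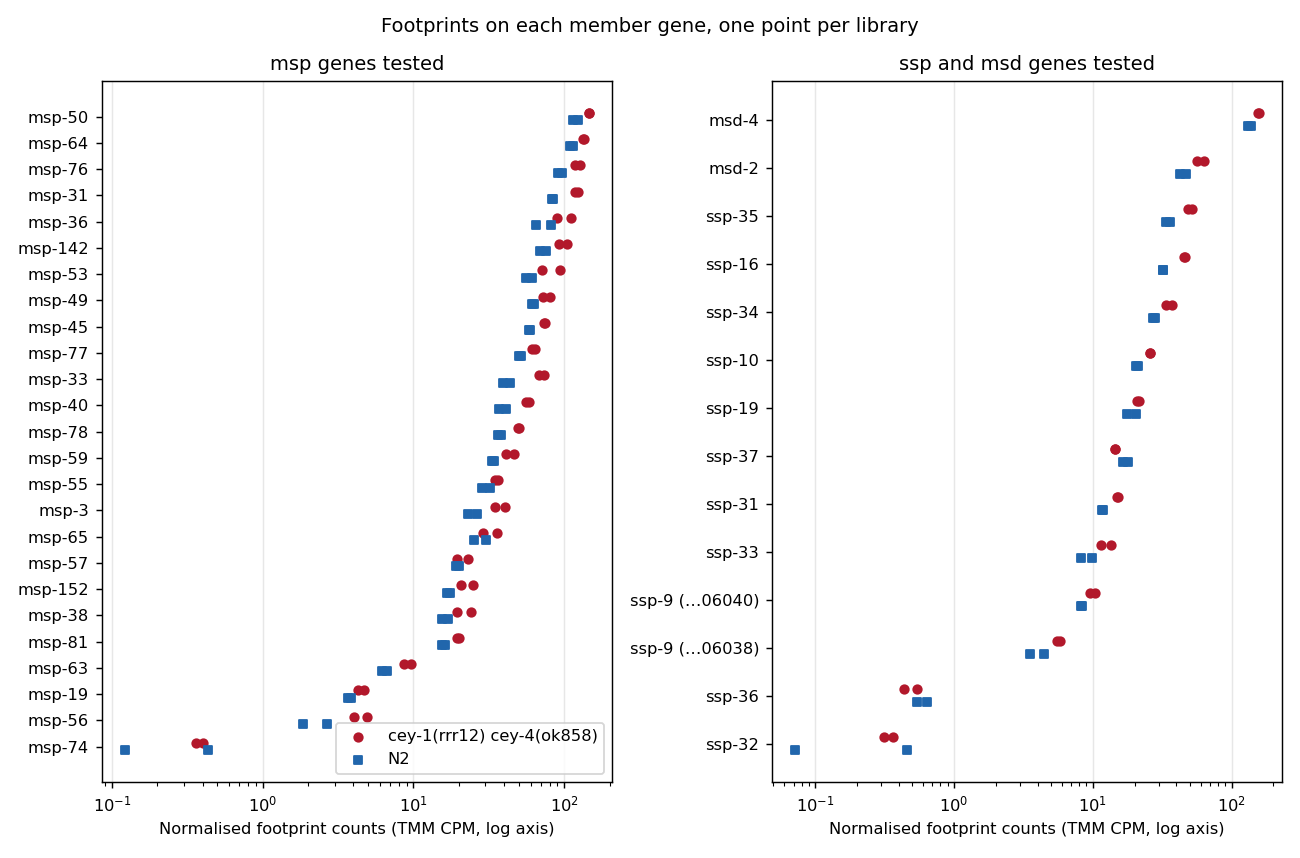
Normalised footprint counts (CPM, log axis) of each tested member in each library, msp genes on the left and ssp and msd genes on the right, with circles for the cey-1(rrr12) cey-4(ok858) mutant and squares for N2. For 33 of the 39 genes both circles lie to the right of both squares, and msp-74, ssp-32 and ssp-36 sit far below the rest.

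The 6 msp genes that did not pass had positive log2 fold changes too, and in 3 of them the libraries of the genotypes overlapped. msp-36 had 89.6 and 111 CPM in the mutant against 65.3 and 82.3 CPM in N2 (log2 fold change 0.44, SE 0.221, edgeR adjusted p = 0.311). msp-53 had 71.1 and 93.2 CPM in the mutant against 55.8 and 60.9 CPM in N2 (log2 fold change 0.49, SE 0.200, edgeR adjusted p = 0.242). In both copies the mutant libraries lay above N2 but differed from each other by about as much as the genotypes did. msp-65 had 28.9 and 35.8 CPM in the mutant against 25.1 and 30.3 CPM in N2, and the genotypes overlapped. On all 4 libraries these 3 did pass with limma-voom (msp-36 adjusted p = 5.46e-05, msp-53 1.22e-05, msp-65 0.0431) and with limma on the deposited log2 values (msp-36 2.53e-06, msp-53 2.62e-07, msp-65 0.0218). With libraries left out, msp-53 passed in edgeR without mutant replicate 1 (0.68, edgeR adjusted p = 1.18e-24) or mutant replicate 2 (0.29, edgeR adjusted p = 9.44e-05). msp-36 passed without N2 replicate 2 (0.61, edgeR adjusted p = 0.00149), mutant replicate 1 (0.59, 2.53e-06) or mutant replicate 2 (0.28, 0.00963). msp-65 passed without N2 replicate 2 (0.35, edgeR adjusted p = 4.96e-05) or mutant replicate 1 (0.37, 4.55e-05). msp-57 had 22.9 and 19.3 CPM in the mutant against 19.1 and 19.9 CPM in N2 (log2 fold change 0.12), passed without mutant replicate 2 (0.23, edgeR adjusted p = 0.0428) and was at -0.02 without mutant replicate 1. msp-19, at 4.69 and 4.27 CPM in the mutant against 3.68 and 3.85 CPM in N2, and msp-74, with 11 and 8 counts against 4 and 12, did not pass.

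The ssp genes encode small proteins of the MSP domain family. All 12 had enough counts to test: 8 rose, 1 fell and 3 did not pass, with a median log2 fold change of 0.34 (-0.11 relative to other sperm genes). ssp-35 had 48.8 and 51.7 CPM in the mutant against 33.8 and 35.9 CPM in N2 (log2 fold change 0.53, SE 0.056, edgeR adjusted p = 1.65e-12). ssp-16 had 45.7 and 46.4 CPM in the mutant against 31.9 and 32 CPM in N2 (log2 fold change 0.53, SE 0.057, edgeR adjusted p = 2.94e-12). Both showed little spread between libraries of a genotype. ssp-34 had 37.4 and 33.5 CPM in the mutant against 28 and 27 CPM in N2 (log2 fold change 0.37, SE 0.062, edgeR adjusted p = 1.41e-06). ssp-10 had 26 and 25.9 CPM in the mutant against 21.3 and 20.5 CPM in N2 (log2 fold change 0.31, SE 0.068, edgeR adjusted p = 1.45e-04). ssp-33 had 11.5 and 13.5 CPM in the mutant against 8.29 and 9.85 CPM in N2 (log2 fold change 0.46, SE 0.099, edgeR adjusted p = 1.37e-04). In all 3 the groups did not overlap. ssp-31 rose by 0.37.

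The symbol ssp-9 belongs to 2 identifiers in the name table, and together they had 15.1 and 16.2 CPM in the mutant against 12.6 and 11.8 CPM in N2 (log2 fold change 0.35, SE 0.084, edgeR adjusted p = 5.29e-04). Singly, WBGene00006038 rose by 0.50 (edgeR adjusted p = 0.00323) and WBGene00006040 by 0.27 (edgeR adjusted p = 0.0303). Neither single call held throughout: ssp-9 (WBGene00006038) did not pass without N2 replicate 2 (0.35, edgeR adjusted p = 0.0787) or with DESeq2 (0.50, 0.116), nor ssp-9 (WBGene00006040) without N2 replicate 1 (0.26, 0.102), N2 replicate 2 (0.28, 0.06) or mutant replicate 2 (0.21, 0.251), or with DESeq2 (0.27, 0.284).

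ssp-37 was the one tested member that fell. It had 14.5 and 14.4 CPM in the mutant against 16.4 and 17.8 CPM in N2, with no overlap (log2 fold change -0.24 with SE 0.080, edgeR adjusted p = 0.0156). The fall did not pass without N2 replicate 2 (-0.18, edgeR adjusted p = 0.148), mutant replicate 1 (-0.25, 0.0741) or mutant replicate 2 (-0.23, 0.0782), nor with DESeq2 (-0.25, adjusted p = 0.18) or upper-quartile scaling (-0.19, 0.0586). Of the 3 that did not pass, ssp-19 had 20.7 and 21.5 CPM in the mutant against 17.5 and 20.4 CPM in N2 (log2 fold change 0.16), and passed without N2 replicate 2 (0.27, edgeR adjusted p = 0.0119) and with upper-quartile scaling (0.21, 0.0291). ssp-36, with 12 and 12 counts in the mutant against 21 and 15 in N2, and ssp-32, with 10 and 7 against 15 and 2, overlapped between genotypes and had large standard errors (0.416 for ssp-36 and 0.579 for ssp-32 on the log2 scale).

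The 2 msd genes with counts both rose. msd-2 had 56.7 and 63 CPM in the mutant against 42.2 and 46.8 CPM in N2 (log2 fold change 0.43, SE 0.056, edgeR adjusted p = 1.10e-08). msd-4, the member with the most counts of all 46, had 154 and 158 CPM in the mutant against 132 and 137 CPM in N2 (log2 fold change 0.22, SE 0.040, edgeR adjusted p = 8.33e-06). In neither gene did the groups overlap, and the difference between the 2 fold changes was not tested. Relative to other sperm genes both were below 0, at -0.02 for msd-2 and -0.23 for msd-4. Centred on somatic genes, msd-4 lost its call (0.04, edgeR adjusted p = 0.532).

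**Figure D3:**
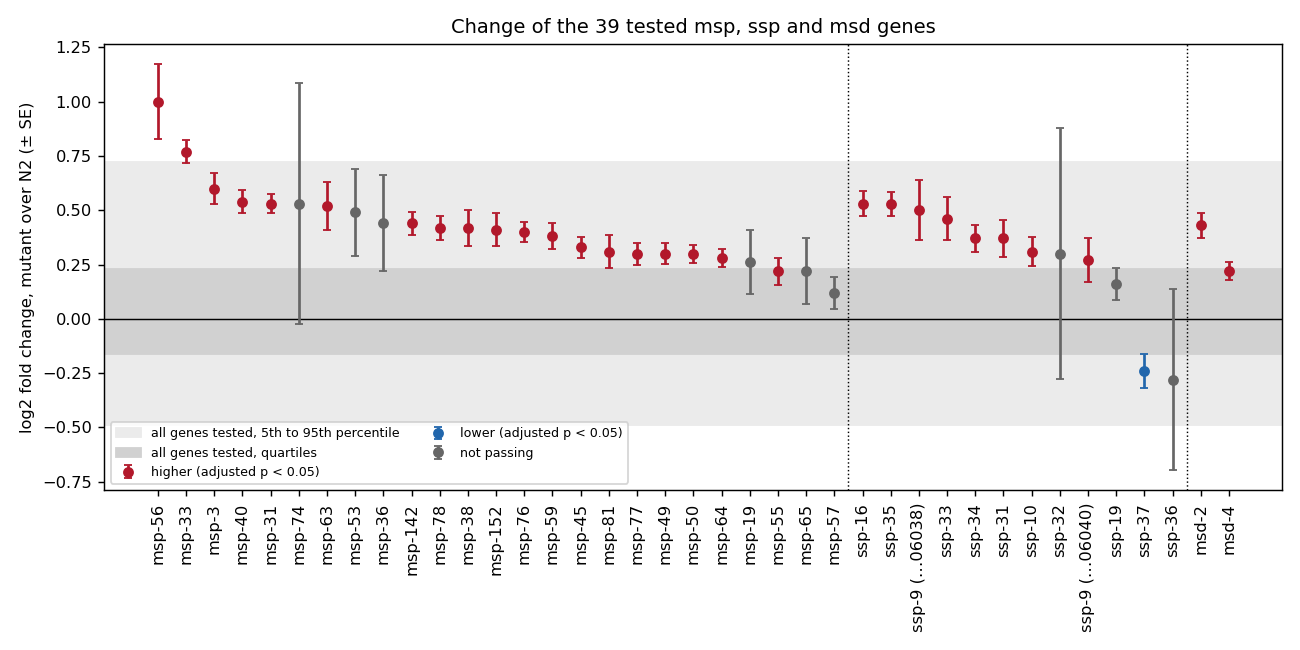
Log2 fold change of each tested member, mutant over N2, with its standard error, for msp, ssp and msd genes in turn. Grey bands give the quartiles (-0.16 to 0.23) and the 5th to 95th percentile (-0.49 to 0.72) of all 13086 genes tested; by this scaling, though not when centred on other sperm genes, 37 of the 39 members lie above 0, and ssp-37 is the one that fell past the threshold.

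The rise of the members depended on what the libraries were scaled to. The 35 somatic marker genes were the muscle, intestine, hypodermis and neuron markers above, which did not move alike. Their median log2 fold changes by the composition scaling were 0.63, 0.19, 0.33 and -0.04 in that order. Centring on these 35 genes lowered all log2 fold changes by 0.18. It left a median of 0.23 for the msp genes, 0.16 for the ssp genes and 0.14 for the msd genes. On this somatic scale 19 members rose and 1 fell, against 8.30% and 36.8% of all genes. The 10 members that no longer passed on the somatic scale were msp-49 (0.12), msp-55 (0.04), msp-64 (0.10, edgeR adjusted p = 0.0856), msp-77 (0.12), msp-81 (0.13), ssp-10 (0.13, edgeR adjusted p = 0.108), ssp-31 (0.19), both ssp-9 identifiers (0.32 for ssp-9 (WBGene00006038) and 0.10 for ssp-9 (WBGene00006040)) and msd-4. Centring on the sperm markers that are not members lowered them by 0.45, and the medians became -0.04 for msp, -0.11 for ssp and -0.13 for msd genes, below 0 after a shift that was subtracted from every gene. Relative to those sperm genes 2 members, msp-33 and msp-56, rose and 10 fell, while 2.67% of all genes rose and 63.0% fell. The 10 were msp-49, msp-50, msp-55, msp-57, msp-64, msp-65, msp-77, ssp-19, ssp-37 and msd-4. The summed msp genes had a log2 fold change of 0.22 on the somatic scale (edgeR adjusted p = 0.00598) and of -0.05 on the sperm scale (edgeR adjusted p = 0.461).

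A related comparison, in raw counts, needed no scaling. It divides by a sum, in which sperm markers with many counts weigh most. In mutant replicate 1, ssq-2 alone held 12570 of the 42177 sperm marker counts. The msp genes had 0.915 and 0.905 counts per count of the sperm markers in the mutant libraries, against 0.948 and 0.959 in N2. The ssp genes had 0.153 and 0.146 in the mutant against 0.162 and 0.159 in N2, and the msd genes 0.136 and 0.135 against 0.155 and 0.155. All 3 ratios were lower in both mutant libraries than in both N2 libraries. With 2 libraries against 2 an exact permutation test could not reach the threshold, and these ratios were not tested.

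**Figure D4:**
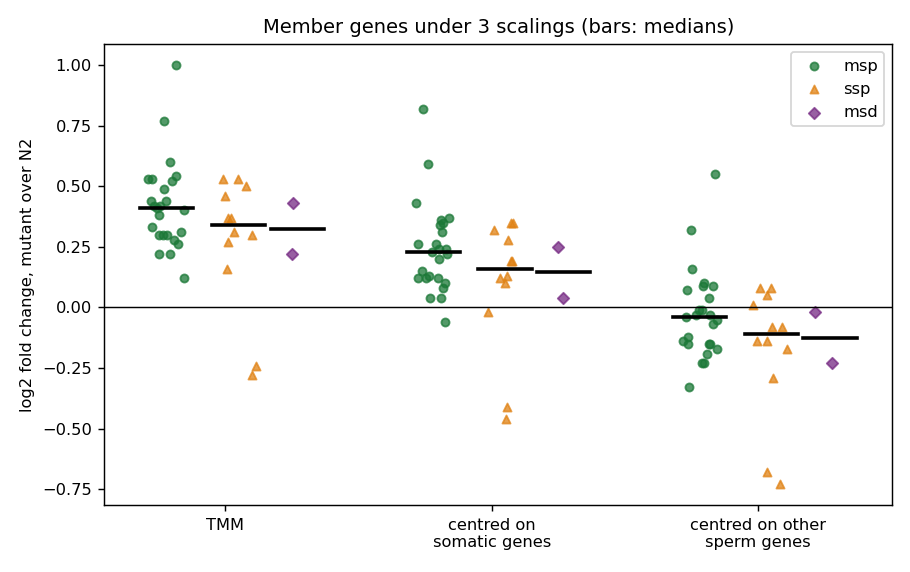
Log2 fold change, mutant over N2, of the tested msp, ssp and msd genes when libraries were scaled by TMM factors, centred on somatic marker genes or centred on sperm markers that are not members; each point is a gene and each bar a family's median. The msp median was 0.41 by TMM, 0.23 on somatic genes and -0.04 on the other sperm genes.

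Within the msp family, few copies changed their share of the family's counts past the threshold. When libraries were scaled to the summed msp counts, an alternative chosen after seeing the data, 3 msp genes rose, 1 fell and 21 did not pass, whereas 3.15% of all genes rose and 57.3% fell on that scale. msp-33 made up 5.18% and 4.59% of the msp counts in the mutant libraries against 4.07% and 3.49% in N2 (log2 fold change 0.37, SE 0.079, edgeR adjusted p = 1.02e-05). msp-56 made up 0.285% and 0.334% in the mutant against 0.174% and 0.235% in N2 (edgeR adjusted p = 0.00173), and msp-3 2.46% and 2.72% against 2.16% and 2.33% (edgeR adjusted p = 0.0328). msp-57 went the other way, with 1.62% and 1.3% in the mutant against 1.79% and 1.76% in N2 (log2 fold change -0.28, edgeR adjusted p = 0.00701). The copy with the most counts, msp-50, made up 10.3% and 9.87% in the mutant against 10.8% and 10.9% in N2 (edgeR adjusted p = 0.2). Its standard error was 0.070 on this scale against 0.041 by the composition scaling. For msp-36, msp-53 and msp-65 the standard error was instead smaller on this scale (0.074, 0.076 and 0.088 against 0.221, 0.200 and 0.151). A share that did not pass cannot be read as unchanged. On this scale msd-4, ssp-19 and ssp-37 fell, by 0.18, 0.24 and 0.63. The msp genes had 6.72 and 6.7 counts per msd count in the mutant libraries against 6.13 and 6.18 in N2.

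Genes that act with major sperm protein were read from lists made with earlier results of these data known. Of 11 genes for the assembly of fibrous bodies and the storage or disassembly of MSP, 9 were in the table. Of these 8 rose and 1 fell, against 17.4% and 16.6% of all genes tested. Their median log2 fold change was 0.57. Relative to the sperm markers it was 0.12, and 2 rose and 1 fell (2.67% and 63.0% of all genes). On that scale spe-6, spe-10, spe-18, spe-26, gsp-3 and gsp-4 did not pass. The msp genes had 4.68 and 4.86 counts per count of these 9 genes in the mutant libraries, against 5.05 and 5.3 in N2. spe-4, a presenilin-like protein of the membranous organelle, had 21.5 and 21.2 CPM in the mutant against 12.7 and 12.7 CPM in N2 (log2 fold change 0.75, SE 0.077, edgeR adjusted p = 5.92e-13). spe-6, a casein kinase family member needed for MSP to assemble in fibrous bodies, rose by 0.58 and spe-18 by 0.58. The sperm phosphatases gsp-3 and gsp-4, which act in MSP disassembly, rose by 0.57 and 0.36, though gsp-4 was at -0.08 relative to the sperm markers. gsp-3 had 89.9 and 92.7 CPM in the mutant against 61.8 and 61.4 CPM in N2. spe-26, a kelch-repeat protein, rose by 0.55. spe-10, a palmitoyltransferase of the fibrous body, rose by 0.46 (edgeR adjusted p = 0.0357), but did not pass when any 1 library was left out (log2 fold changes 0.42 to 0.51, edgeR adjusted p 0.0757 to 0.166) with DESeq2 (0.46, 0.308) or centred on somatic genes (0.28, 0.195). spe-39, which acts in vesicle trafficking in many tissues, fell by 0.39 (edgeR adjusted p = 0.00915), and did not pass without mutant replicate 1 (-0.40, 0.0603) or 2 (-0.38, 0.0584), or with DESeq2 (-0.40, 0.156).

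Of 4 regulators of sperm fate and sperm gene transcription, 3 rose (17.4% of all genes tested rose) and 1 did not pass. spe-44, a transcription factor that activates sperm genes including msp genes, had 1.14 and 1.8 CPM in the mutant against 0.395 and 0.611 CPM in N2 (log2 fold change 1.53, SE 0.332, edgeR adjusted p = 1.38e-04). fog-3 rose by 1.92 (SE 0.301, edgeR adjusted p = 2.49e-07). The 3 that rose rest on few counts. spe-44 had 31 and 40 counts in the mutant against 13 and 17 in N2, and fog-3 49 and 44 against 18 and 12. For fog-1 the counts were 28 and 32 in the mutant against 19 and 19 in N2. fog-1 rose by 0.95 (edgeR adjusted p = 0.0161) but did not pass without N2 replicate 1 (0.82, 0.114) or mutant replicate 2 (0.71, 0.243), or with DESeq2 (0.96, 0.196). elt-1, a GATA factor, had 3.33 and 2.7 CPM in the mutant against 2.86 and 2.77 CPM in N2, and the groups overlapped.

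On the receiving side, the genes through which oocytes and the gonadal sheath respond to MSP did not move as one by the composition scaling. Of 15, 4 rose, 6 fell and 5 did not pass, with a median log2 fold change of -0.07 (17.4% of all genes tested rose and 16.6% fell). Centred on somatic genes 2 rose and 8 fell, with a median of -0.25 (8.30% and 36.8% of all genes). Relative to sperm markers 0 rose and 13 fell, with a median of -0.52 (2.67% and 63.0% of all genes). The Eph receptor vab-1, to which MSP binds, had 6.08 and 5.13 CPM in the mutant against 4.8 and 5.1 CPM in N2 (log2 fold change 0.19 with SE 0.132, edgeR adjusted p = 0.284). The gap junction innexins inx-14 and inx-22, which restrain oocyte maturation, fell by 0.49 and by 0.61. oma-2 and oma-1, zinc finger proteins that oocyte maturation requires, fell by 1.66 and by 0.87, lin-41 by 0.47 and the MAP kinase mpk-1 by 0.37; both oma genes are also among the oocyte markers above. The genes that rose were gsa-1, the stimulatory G protein (0.50), the protein kinase A subunits kin-2 (0.29) and kin-1 (0.20), and the calcium-dependent kinase unc-43 (0.26). kin-1 did not pass without N2 replicate 1 (0.13, edgeR adjusted p = 0.0886) or with DESeq2 (0.20, 0.0587). Centred on somatic genes neither kin-1 (0.03, edgeR adjusted p = 0.735) nor unc-43 (0.08, 0.208) passed. Relative to sperm markers kin-1, kin-2 and unc-43 had negative log2 fold changes. vpr-1, the VAP protein, has an MSP domain of the kind found outside sperm. It had 78.9 and 81.9 CPM in the mutant against 83.6 and 81.5 CPM in N2, with overlapping groups. By the composition scaling its log2 fold change was -0.04 (SE 0.046, edgeR adjusted p = 0.554). It was called lower when centred on somatic genes (-0.22) and relative to sperm markers (-0.49), where 36.8% and 63.0% of all genes fell.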

How the data were processed

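The authors deposited a table of whole-number footprint counts per gene for 4 libraries, and a table of log2 values that match, within 0.0005, log2 of 8 plus the count after scaling every library to the lowest total. Per the submitters' processing notes Bowtie aligned the reads; the sources used here give no version, build, annotation, strand setting or rule for multiply matching reads. Symbols were matched by WormBase identifier (18778 of 20182 rows); 3 rows that repeat genes under a sequence name were dropped. Counts were tested over all genes in R 4.3.3 with edgeR 4.0.16 (TMM, filterByExpr with a minimum count of 10, glmQLFit robust, glmQLFTest, 2-sided, genotype only, Benjamini-Hochberg threshold 0.05); CPM use TMM factors, and the SE is the log2 fold change over the root of F. The identity grouping planned for copies (95%) needs protein sequences not used here, so msp genes, and identifiers that share a symbol, were summed by name instead. Members, lists and tests were chosen with earlier results of these data known. Named in full were, in each family, the 4 members with the most counts, the 4 with the lowest p, any that fell, and all list genes that passed, of which 1 is not reported here; others were named after their values were seen. Replicates differed beyond sampling of reads (chi-square over its degrees of freedom 8.38 in the mutant and 24.6 in N2). On simulated counts the test recovered 8 of 48 genes changed 1.2-fold (16.7%) and 40 of 53 changed 1.5-fold (75.5%). At 2-fold it recovered 45 of 53 and at 4-fold 41 of 41, with 6 false calls over 12919 genes tested. Small changes can thus be missed. Alternatives used DESeq2 1.42.0 and limma 3.58.1.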

Additional observations from a re-analysis of the deposited data

How the results depend on the processing

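The summed msp row passed under every alternative run on it other than centring on sperm genes (log2 fold change 0.22 to 0.45). The main counts were 29 members higher and 1 lower, and 10 rows higher and 1 lower with copies joined. The lower call, ssp-37, was lost with DESeq2 and upper-quartile factors (0 members and 0 joined rows lower). Centring on somatic genes left 19 members and 6 joined rows higher, and a test against a 1.2-fold change left 12 and 4, with 0 lower. Leaving out each library gave 0 to 1 members and 0 to 1 joined rows lower. The numbers shared by replicates of both genotypes mark nothing in the labels; with a replicate block 32 members rose and 1 fell, 10 joined rows rose and 1 fell, and the summed msp row kept 0.40, msp-36, msp-53 and msp-65 being the added calls (the correlation of deviations was 0.111). Over all genes 2278 rose and 2177 fell, against 1007 and 1171 with DESeq2, which gave no adjusted p for 3 members, 2730 and 1598 with upper-quartile factors, and 809 and 450 in the test against 1.2-fold. With limma-voom and with limma on the deposited log2 values 32 members rose. Over all genes 2209 rose and 2098 fell with limma-voom, and 2251 and 2106 with limma on the log2 values. The replicate block gave 2431 and 2351 over all genes. Grouping at 90% or 99% protein identity was not run.

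Centred on sperm genes, 2 members rose and 10 fell, and 0 joined rows rose and 3 fell. The summed msp row turned to -0.05, and these log2 fold changes turned negative too: msp-50 -0.15, msp-64 -0.17, msp-76 -0.05, msp-36 -0.01, msp-55 -0.23, msp-49 -0.15, msp-77 -0.15, msp-19 -0.19, msp-45 -0.12, msp-142 -0.01, msp-81 -0.14, msp-38 -0.03, msp-57 -0.33, msp-78 -0.03, msp-65 -0.23, msp-59 -0.07, msp-152 -0.04, ssp-34 -0.08, ssp-10 -0.14, ssp-19 -0.29, ssp-32 -0.14, ssp-9 (WBGene00006040) -0.17, ssp-31 -0.08, msd-4 -0.23, msd-2 -0.02, gsp-4 -0.08, kin-1 -0.24, kin-2 -0.16 and unc-43 -0.19. Scaled to the summed msp counts, an alternative chosen after seeing the data, 3 members rose and 4 fell, 0 joined rows rose and 3 fell, and these turned negative: msp-50 -0.10, msp-64 -0.12, msp-55 -0.18, msp-49 -0.10, msp-77 -0.10, msp-19 -0.14, msp-45 -0.07, msp-81 -0.09, msp-57 -0.28, msp-65 -0.18, msp-59 -0.02, ssp-34 -0.03, ssp-10 -0.09, ssp-19 -0.24, ssp-32 -0.10, ssp-9 (WBGene00006040) -0.12, ssp-31 -0.03, msd-4 -0.18, gsp-4 -0.03, kin-1 -0.19, kin-2 -0.10 and unc-43 -0.14. Both scalings shift all genes by construction. Centring on somatic genes turned ssp-19 to -0.02 and msp-57 to -0.06, neither called. Leaving out each library, log2 fold changes ran from -0.17 to 1.62 for msp-74, -0.41 to 2.18 for ssp-32 and -0.02 to 0.23 for msp-57, negative without N2 replicate 1, N2 replicate 2 and mutant replicate 1 in that order. DESeq2 also lost msp-55, msp-81, both ssp-9 identifiers, spe-10, spe-39, fog-1 and kin-1, with values beside each gene above.

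Depth limits the low members: msp-74, ssp-32 and ssp-36, with 21 or fewer counts a library, had standard errors of 0.556, 0.579 and 0.416 on the log2 scale.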
